A study of Mus musculus with 6 samples.

Results

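The nuclear genes of mouse liver oxidative phosphorylation were compared between mice given a fruit extract and mice given water. They were chosen by symbol, as the rows beginning with Ndufa, Ndufb, Ndufc, Ndufs, Ndufv, Uqcr, Atp5 or Cox4 to Cox8, together with Sdha, Sdhb, Sdhc and Sdhd. The rule found 95 of the 22899 rows in the deposited table, and no expression value entered it. Of these, 85 are subunits or subunit isoforms: 38 of complex I, 4 of complex II, 8 of complex III, 19 of complex IV and 16 of complex V. The other 10 are not subunits but share the spelling: the complex I assembly factors Ndufaf1 to Ndufaf8, the supercomplex factor Cox7a2l, and Atp5s, a regulatory factor of the ATP synthase. Ndufa4 and its paralog Ndufa4l2 were counted with complex IV, where the Ndufa4 protein is now placed.

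The extract group held 3 liver libraries of ICR mice, an outbred stock. These mice received the ethyl acetate fraction of a hydrosoluble Chebulae Fructus extract (the dried fruit of Terminalia chebula) at 1 g/kg per day by gastric irrigation for 1 week. The water group held 3 liver libraries of ICR mice that received water at 10 ml/kg by the same route for 1 week. The mice were specific pathogen-free, and the labels give no age, sex, cage or day, nor do they say whether the libraries of a group are different mice. The p-values therefore cover only library-to-library spread, which may be technical. Libraries are called extract 1 to 3 and water 1 to 3. Values given for extract livers or water livers are those of these libraries, and n counts libraries.

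Oxidative phosphorylation takes place in the inner mitochondrial membrane. Complex I accepts electrons from NADH and complex II from succinate, ubiquinone carries them to complex III, and cytochrome c carries them to complex IV, where oxygen is reduced. Complexes I, III and IV pump protons, and complex V, the ATP synthase, lets them flow back to make ATP. Most subunits are encoded in the nucleus. Those encoded in mitochondrial DNA were looked for by symbol, matched no row of the deposited table and were therefore not analysed here. Hepatocytes are rich in mitochondria and use this ATP for gluconeogenesis and urea synthesis, among other tasks.

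Values are FPKM, a fragment count scaled to transcript length and to the size of the library, a unit inferred from the deposited numbers. Their sums were 536615 to 564549 in extract libraries and 517984 to 583245 in water libraries. Read totals are unknown, so no counting error can be given. A gene was tested where 3 or more libraries reached 1 FPKM, and 5 of 10282 such genes passed limma's test at an adjusted p of 0.05, which is 0.0486% (0.0292% lower and 0.0195% higher in extract). All 8 hepatocyte markers were detected, with a summed level of 66427 to 79556 FPKM in extract and 83500 to 89300 FPKM in water libraries. At limma's unadjusted p below 0.05, 1 of them was higher and 1 lower in extract, against 6.50% and 3.82% of all tested genes. The 10 Kupffer cell markers summed to 210.2 to 322 FPKM in extract and 130.2 to 154 FPKM in water libraries, with none at 0, and 8 were higher in extract at limma's unadjusted p below 0.05, as were 6.50% of all tested genes. The 6 erythroid markers summed to 798 to 969 FPKM in extract and 1167 to 3350 FPKM in water libraries, with none at 0, and 3 were lower at that threshold, as were 3.82% of all tested genes. The part of these cell types in the subunit values was not tested, and in whole liver fewer cells of a type and less RNA per cell cannot be told apart.

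Among the 95 rows, 88 were tested, 78 of them subunits, and all 10 non-subunits passed the filter on low values. Cox7b2, Cox8c and Ndufb4b were blank in every library, and Cox4i2, Cox6a2, Cox6b2 and Cox8b were below the filter. The subunit transcripts were abundant. The median tested subunit had 132, 125 and 125 FPKM in extract 1 to 3, against 180.3, 136 and 128 FPKM in water 1 to 3, while the median of all tested genes lay between 6.95 and 7.42 FPKM. All subunits together made up 2.41% ± 0.029 of the FPKM sum in extract and 2.79% ± 0.298 in water libraries (SD, n = 3 each). That share was 2.43%, 2.38% and 2.42% in extract 1 to 3, against 3.13%, 2.68% and 2.57% in water 1 to 3, so water 1 stood apart and set most of the spread. FPKM is scaled to length, so levels are set side by side between genes here, with a limit. Differences between libraries still ran with transcript length, and median lengths differed between complexes, at 868 nucleotides in complex I and 618 in complex IV. The median tested subunit of complex I had 83.9 to 91.7 FPKM in extract and 87.1 to 116 FPKM in water libraries, the lowest of the 5 complexes in every library. Complexes IV and V lay highest, with medians of 225 to 272 and 241 to 264 FPKM in extract libraries and 232 to 380.5 and 244 to 339.8 FPKM in water libraries. Within complex I, mean levels over all libraries ran from 14.7 FPKM for Ndufa11, an accessory membrane subunit, to 287 FPKM for Ndufb9. Atp5b, the catalytic beta subunit of the ATP synthase, was the most abundant subunit at 786 FPKM.

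Several complex IV subunits exist as a broadly expressed and a muscle, lung or testis isoform, and the liver libraries held nearly only the first. Cox6a2 and Cox8b, the heart and skeletal muscle isoforms, were listed at 0 in all 6 libraries, as were the muscle markers Ckm and Tnnt3. Their broadly expressed partner Cox6a1 had 609.6, 625 and 577 FPKM in extract 1 to 3, against 797, 685 and 613 FPKM in water 1 to 3. Cox8a had 404, 405 and 441 FPKM in extract libraries, against 588, 463 and 424 FPKM in water libraries. The lung isoform Cox4i2 stayed between 0.08 and 0.24 FPKM in extract and between 0 and 0.47 FPKM in water libraries. Cox4i1, its broadly expressed partner, had 406, 389 and 389 FPKM in extract libraries, against 573, 427 and 376 FPKM in water libraries. The testis isoform Cox6b2 had 0.12 to 0.55 FPKM in extract and 0.34 to 0.80 FPKM in water libraries. For each of these pairs the broadly expressed member was far higher in every library, and the 2 groups overlapped for each except for those listed at 0.

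Cox7a1 was the muscle isoform with a measurable level. It encodes the heart and muscle form of subunit VIIa, also made in brown fat, and it was detected at 2.15, 1.78 and 2.26 FPKM in extract 1 to 3, against 3.55, 3.92 and 4.14 FPKM in water 1 to 3. All extract libraries lay below all water libraries. The means were 2.06 ± 0.251 FPKM in extract and 3.87 ± 0.298 FPKM in water livers (SD, n = 3 each), a ratio of 0.533. The log2 fold change, on the log2(FPKM + 1) scale, was -0.67 with a standard error of 0.12. It was the member with the smallest p, yet it did not pass over all genes (limma adjusted p = 0.117). Across 18 alternative settings its log2 fold change lay between -0.91 and -0.60 and its limma adjusted p between 0.0354 and 0.435, below 0.05 only with library weights. Cox7a2, the liver form of the same subunit, had 88.9, 84.4 and 82.0 FPKM in extract libraries, against 148, 93.0 and 85.9 FPKM in water libraries, with overlap. The ratio of Cox7a2 to Cox7a1 was 41.3, 47.4 and 36.3 in extract 1 to 3, against 41.8, 23.7 and 20.7 in water 1 to 3, so water 1 lay among the extract libraries in this ratio. The Cox7a1 transcript is short, at 393 nucleotides, and the number of fragments behind its low values is unknown. The 4 muscle markers with values summed to 0.34 to 1.06 FPKM in extract and 0.32 to 0.52 FPKM in water libraries. Among them 0 passed the filter on low values. Ckm and Tnnt3 were at 0 and Acta1 stayed at or below 0.08 FPKM, so the remaining marker carried most of that sum. Cidea, a brown fat marker, was listed at 0 in all libraries, and Ucp1, the other one looked for, had no values. The part of muscle or brown fat RNA in the Cox7a1 values was not tested.

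**Figure D1:**
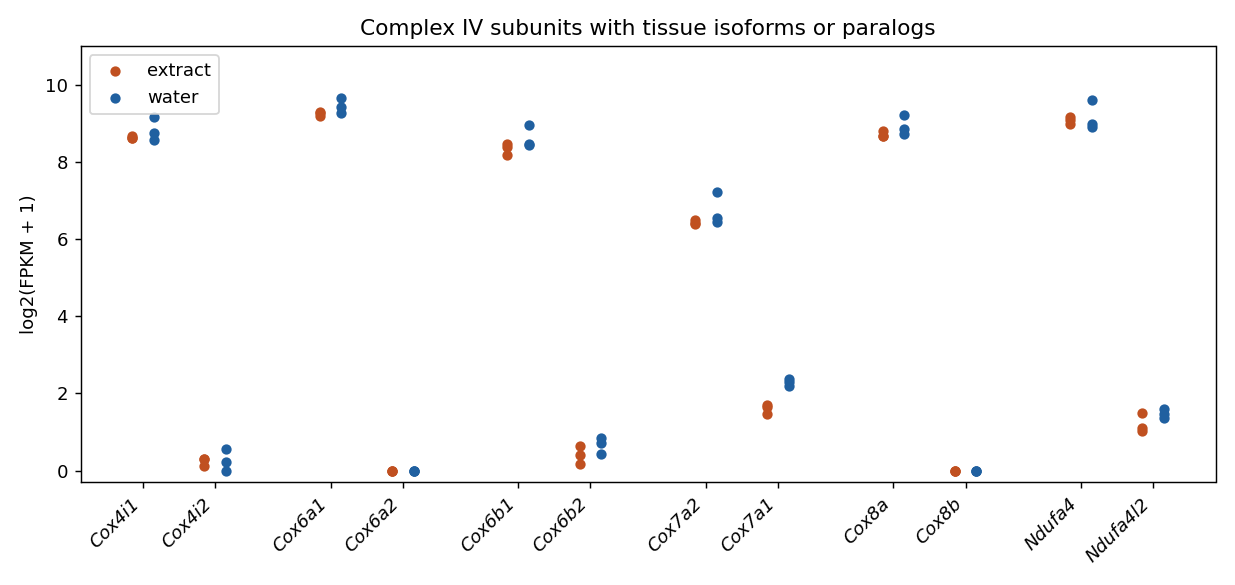
Levels of 6 complex IV subunits and their tissue isoforms or paralogs, as log2(FPKM + 1), with 1 point per library (3 extract libraries left, 3 water libraries right of each pair). Cox7a1, at 1.78 to 2.26 FPKM in extract and 3.55 to 4.14 FPKM in water libraries, is the isoform whose groups lie fully apart.

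The stretches before the start sites of Cox7a1 and Cox7a2 are shown because this isoform pair holds the member of smallest p, and those of Cox6a1 and Sdha because they carry a motif of nuclear respiratory factor 1 (NRF1), a regulator of respiratory genes. Each is the 150 bases before the transcription start that RefSeq's promoter table gives on GRCm38.p6, written 5′ to 3′ on the gene's own strand, with NRF1 letters in capitals. Cox7a1 is at chr7:30184021-30184170 on the plus strand, Cox7a2 at chr9:79759854-79760003, Cox6a1 at chr5:115348959-115349108 and Sdha at chr13:74350241-74350390, all 3 on the minus strand. The start used for Cox7a2 lies inside the RefSeq span of that gene, which reaches further upstream, to base 79771422, while the other starts are the ends of their gene spans.
Cox7a1: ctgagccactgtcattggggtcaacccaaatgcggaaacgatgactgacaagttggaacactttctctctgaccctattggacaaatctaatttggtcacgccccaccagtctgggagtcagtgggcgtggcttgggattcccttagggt
Cox7a2: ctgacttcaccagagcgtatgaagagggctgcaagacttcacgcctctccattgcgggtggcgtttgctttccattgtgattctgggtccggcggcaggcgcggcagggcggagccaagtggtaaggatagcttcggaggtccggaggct
Cox6a1: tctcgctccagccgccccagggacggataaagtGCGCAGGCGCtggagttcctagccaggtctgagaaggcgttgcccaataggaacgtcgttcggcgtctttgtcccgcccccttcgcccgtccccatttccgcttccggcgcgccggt
Sdha: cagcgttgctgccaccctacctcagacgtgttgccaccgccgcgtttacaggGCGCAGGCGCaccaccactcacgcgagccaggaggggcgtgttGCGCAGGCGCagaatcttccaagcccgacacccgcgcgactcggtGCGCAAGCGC
The motif, GCGCA and GCGC with any base between them, was searched on both strands in windows from 250 bases before to 50 after each start. It stood in 18 of 73 windows of 68 subunit genes, or 24.7%, against 4.60% of all 32851 windows and 10.3% of the 10617 windows of tested genes. Letters of the factor YY1 (AAGATGGCG) stood in 9.6% of the subunit windows, against 1.40% of all windows and 3.23% of those of tested genes. For GABP, an ETS factor (CCGGAAGT), the shares were 6.8% of subunit windows, 3.89% of all windows and 8.46% of tested-gene windows. For the receptor ERR alpha (TCAAGGTCA) they were 2.7% of subunit windows, 0.42% of all and 0.27% of tested-gene windows. The median log2 fold change was -0.13 for the 17 tested subunits with NRF1 letters and -0.16 for the 47 without, or 0.02 and -0.04 without water 1. Of the factors themselves, Nrf1 had 2.45 ± 0.133 FPKM in extract and 2.62 ± 0.544 FPKM in water livers, and Gabpa had 8.43 ± 1.25 and 8.53 ± 1.51 FPKM (SD, n = 3 each). Yy1 had 19.2 ± 0.829 and 19.1 ± 1.87 FPKM, and Esrra, which encodes ERR alpha, had 14.2 ± 1.99 and 16.3 ± 2.36 FPKM. The groups overlapped for each of these factors.

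The subunits moved together across libraries, and the library they followed was water 1. Of the 78 tested subunits, 69 (88.5%) had their highest value there, against 22.1% of all tested genes. The level in water 1 divided by the mean of water 2 and water 3 had a median of 1.40 over the subunits and ran from 0.69 for Sdha to 1.90 for Atp5e, the small epsilon subunit of the ATP synthase. It was above 1 for 71 of 78 subunits. The median ratio was 1.45 in complex I, 1.07 in complex II, 1.47 in complex III, 1.42 in complex IV and 1.35 in complex V. Within complex I it was 1.47 over 30 accessory subunits and 1.22 over the 7 core subunits, among them those that hold the flavin and the iron-sulfur clusters. These sets also differed in median transcript length, at 732 nucleotides for the accessory and 1623 for the core subunits. In complex II that median was 2065.5 nucleotides. Ndufs1, Sdha and Atp5a1, with transcripts of 2661, 2900 and 2471 nucleotides, had their lowest value in water 1. The ratio was also below 1 for Ndufa10, Uqcrc2, Cox7a1 and Ndufa4l2.

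**Figure D2:**
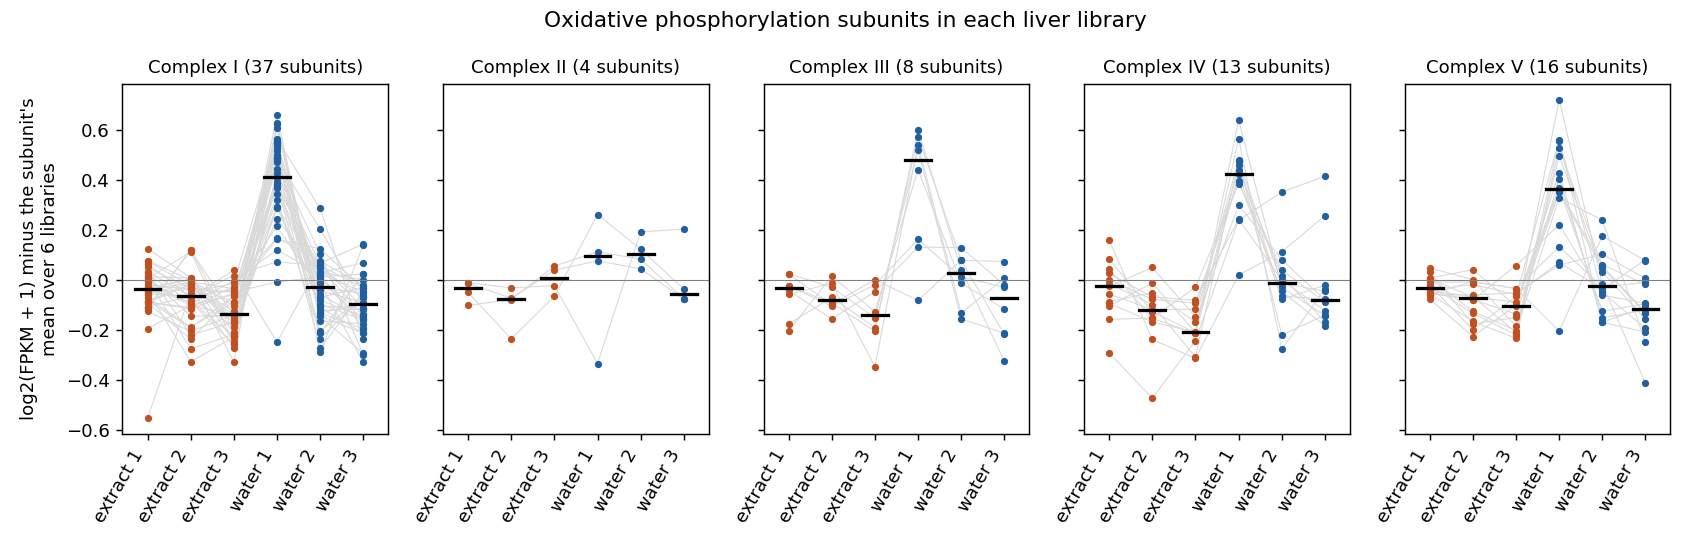
Each tested subunit's log2(FPKM + 1) minus its mean over 6 libraries, by complex (points and grey lines, 1 per subunit; black bars, median; extract libraries left, water libraries right). Water 1 holds the highest value of 69 of 78 subunits, while in complex II the median of water 1 is close to that of water 2.

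The height of a subunit in water 1 ran with transcript length. Over 77 tested subunits with a length in the GENCODE M21 annotation, the log2 difference between water 1 and the mean of water 2 and 3 had a Pearson correlation of -0.65 with log2 length (Spearman -0.66). Over all 10153 tested genes with a length it was -0.38 (Spearman -0.43). These are descriptions across genes that share the same 3 libraries. The 49 subunits under 1000 nucleotides had a median difference of 0.56 and the other 28 had 0.16, against 0.45 for 640 tested genes under 1000 nucleotides and -0.03 for 9513 longer ones. Subunit transcripts are short, with a median of 809 nucleotides against 2896 over all tested genes. With each library's trend with length removed, the subunits' median difference between water 1 and water 2 and 3 was 0.04, against 0.48 as deposited, and 34 of 77 (44.2%) were highest in water 1, against 22.4% of all genes. In the extract livers the median difference from water 2 and 3 was 0.00 for subunits under 1000 nucleotides and -0.05 for longer ones. Among the short ones Cox7a1 lay farthest below 0 in extract.

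**Figure D3:**
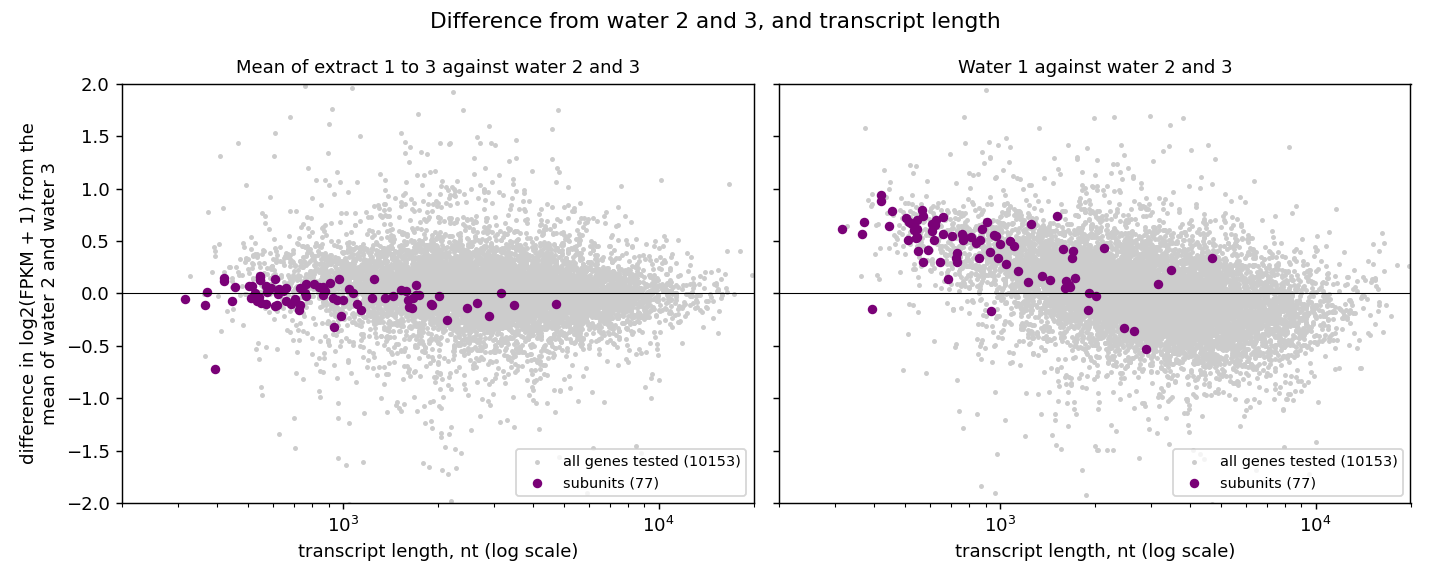
Difference in log2(FPKM + 1) from the mean of water 2 and water 3, against transcript length on a log axis, for the mean of the 3 extract libraries (left) and for water 1 (right), with 77 subunits over 10153 tested genes. Most short subunits lie above 0 in water 1 while most lie near 0 in extract, with Cox7a1 farthest below; 36 and 30 genes lie beyond the vertical axis limit of 2.

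The comparison of extract with water asked whether the respiratory chain genes differed after a week of treatment. 0 of 88 tested members passed limma over all genes, against 0.0486% of all tested genes. At limma's unadjusted p below 0.05, 2 of 78 subunits (Cox7a1 and Ndufb8) were lower in extract, against 3.82% of all tested genes, and 0 were higher, against 6.50%. The log2 fold change was below 0 for 77 of 78 subunits, against 42.4% of all tested genes, with a median of -0.17 against 0.03. By complex the median was -0.15 over 37 complex I subunits, -0.06 over 4 complex II subunits, -0.19 over 8 complex III subunits, -0.21 over 13 complex IV subunits and -0.14 over 16 complex V subunits. This share was lower when water 1 was left out. Without it, 45 of 78 subunits were below 0, against 43.8% of all genes. At limma's unadjusted p below 0.05, 2 were then lower and 0 higher, against 6.06% and 9.46% of all genes. The 2 were Cox7a1 and Sdha, and Ndufb8 was no longer among them. The medians without water 1 were 0.00, -0.10, -0.06, -0.06 and -0.03 for complexes I to V. With all libraries kept and the length trend removed, 75 of 77 subunits were below 0, against 49.9% of all genes, with a median of -0.15, and 9 were lower at limma's unadjusted p below 0.05, against 6.07%. In that fit 0 were higher, against 5.91%, and 0 passed the adjusted threshold, against 0.0295% of all genes. Its medians for complexes I to V were -0.148, -0.085, -0.176, -0.176 and -0.135. At 500 nucleotides the log2 trend removed was 0.44, -0.175 and -0.192 in water 1 to 3, against 0.023, -0.023 and -0.075 in extract 1 to 3. The water trends largely offset each other in the group mean. This removal therefore changed the group difference little and cannot stand in for leaving out water 1.

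**Figure D4:**
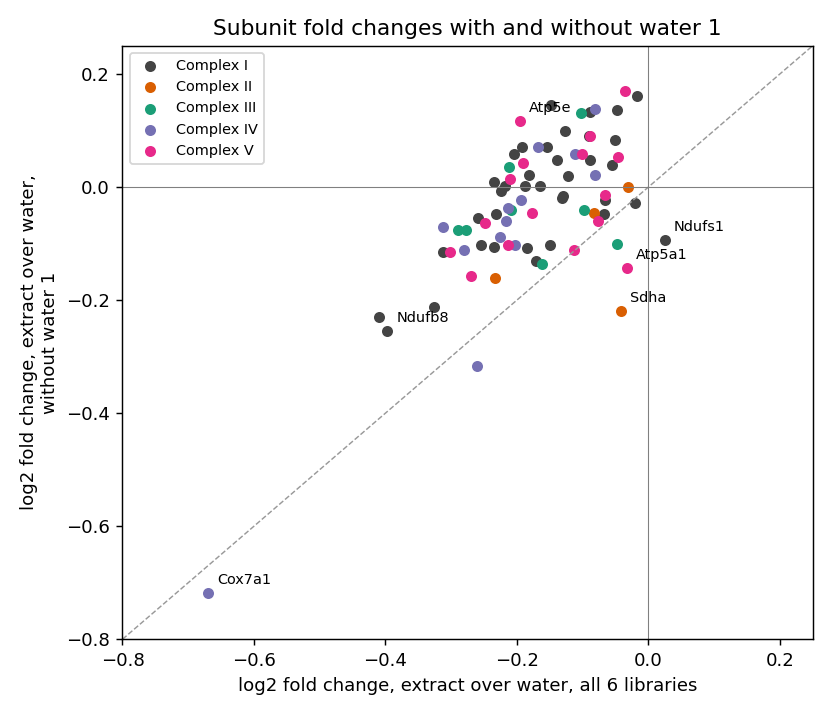
Log2 fold change of extract over water for the 78 tested subunits, with all 6 libraries (horizontal) and without water 1 (vertical), coloured by complex; the dashed line marks equal values. With all libraries 77 of 78 lie below 0, without water 1 it is 45, and Cox7a1 keeps its place at -0.67 and -0.72.

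For 9 of the 78 subunits every extract library lay below every water library, which is 11.5% against 5.88% of all tested genes, and for 0 it lay above, against 10.0%. Those in complex I included Ndufs8, Ndufa7 and Ndufc2. Ndufs8, a core subunit that carries iron-sulfur clusters, had 60.7, 49.9 and 52.0 FPKM in extract livers, against 79.8, 61.9 and 63.6 FPKM in water livers. Its log2 fold change was -0.33 (SE 0.14, limma adjusted p = 0.491), or -0.21 without water 1. The accessory subunit Ndufa7 had 93.7, 88.7 and 92.8 FPKM in extract livers, against 151, 100.3 and 98.6 FPKM in water livers, and water 1 alone was well above the rest. Ndufc2, which was chosen after its values were seen, had 61.2, 60.3 and 64.0 FPKM in extract livers, against 73.3, 68.7 and 64.2 FPKM in water livers.

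Ndufb8, an accessory subunit of the membrane arm, had 174, 143 and 153 FPKM in extract livers, against 252, 207 and 168 FPKM in water livers. Extract 1 overlapped water 3, and the log2 fold change was -0.40 (SE 0.17, limma adjusted p = 0.483). It was -0.25 without water 1. For 3 further subunits, Ndufs1, Ndufv1 and Ndufa9, the groups overlapped. Ndufs1, the largest core subunit, had 37.8, 34.4 and 37.1 FPKM in extract livers, against 30.2, 37.9 and 40.0 FPKM in water livers. Its 95% interval for the log2 fold change ran from -0.28 to 0.33. Ndufv1, the flavin subunit that binds NADH, had 80.9, 80.4 and 85.1 FPKM in extract livers, against 88.5, 87.5 and 82.3 FPKM in water livers, with an interval from -0.31 to 0.18. Ndufa9 had 83.3, 78.1 and 83.3 FPKM in extract livers, against 90.7, 85.0 and 80.6 FPKM in water livers. Ndufb4c, a near copy of Ndufb4, had 21.7 ± 4.43 FPKM in extract and 29.5 ± 8.18 FPKM in water livers (SD, n = 3 each), and reads could be divided between these copies.

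Complex II, succinate dehydrogenase, is wholly encoded in the nucleus and shared with the citrate cycle. Sdhb, its iron-sulfur subunit, had 243, 213 and 239.9 FPKM in extract livers, against 301, 274 and 245 FPKM in water livers. The groups did not overlap, and the log2 fold change was -0.23 (SE 0.13, limma adjusted p = 0.612). Sdha, the flavin subunit, had 134, 132 and 133 FPKM in extract livers, against 107, 154 and 156 FPKM in water livers. Water 1 was the lowest library for Sdha and water 2 and 3 were the highest, so the log2 fold change was -0.04 with all libraries and -0.22 without water 1. The membrane anchors Sdhc and Sdhd had 123 to 133 and 103 to 115 FPKM in extract livers, against 123 to 136 and 105 to 119 FPKM in water livers, with overlap.

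In complex III, Uqcrc1, a core subunit on the matrix side, had 162, 149 and 161 FPKM in extract livers, against 182, 182 and 164 FPKM in water livers. The groups did not overlap, by a small margin, and the log2 fold change was -0.16 (SE 0.11, limma adjusted p = 0.709). The small subunits moved with water 1: Uqcr11 had 297, 319 and 294 FPKM in extract livers, against 499, 354 and 288 FPKM in water livers. Uqcrb had 297, 307 and 243 FPKM in extract livers, against 451, 282 and 311 FPKM in water livers. Without water 1 the log2 fold change was -0.08 for both. Uqcrfs1, the Rieske iron-sulfur protein, had 102, 96.5 and 102 FPKM in extract livers, against 116, 105 and 102 FPKM in water livers, with overlap.

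In complex IV, cytochrome c oxidase, 1 of 13 tested subunits, Cox7a1, had groups fully apart with extract lower, against 5.88% of all tested genes. Cox6b1, which faces the intermembrane space, had 350.3, 330.4 and 286 FPKM in extract livers, against 493, 351 and 343 FPKM in water livers, and extract 1 overlapped water 3. Cox5a, which encodes another nuclear subunit of the enzyme, had 228, 213 and 211 FPKM in extract livers, against 265, 224 and 205 FPKM in water livers. Cox7b had 136, 145 and 127 FPKM in extract livers, against 197, 139 and 144 FPKM in water livers. For Cox5a and Cox7b every extract library lay below water 1 and the groups overlapped through water 2 and 3. Ndufa4l2, a hypoxia-inducible paralog of Ndufa4, had 1.83, 1.15 and 1.04 FPKM in extract livers, against 1.57, 1.74 and 2.03 FPKM in water livers (log2 fold change -0.26, limma adjusted p = 0.626). Ndufa4 itself, read after its values were seen, had 544, 573 and 499.9 FPKM in extract livers, against 773, 476 and 502 FPKM in water livers, with overlap.

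In complex V, Atp5g3 and Atp5b had groups that did not overlap. Atp5g1, Atp5g2 and Atp5g3 encode the same mature subunit c of the proton-driven rotor with different import sequences. Atp5g3 had 285, 257 and 280.2 FPKM in extract livers, against 385, 314 and 297 FPKM in water livers, or -0.27 on the log2 scale (SE 0.14, limma adjusted p = 0.574), and -0.16 without water 1. Atp5g1 had 275, 251 and 238 FPKM in extract livers, against 344, 323 and 231 FPKM in water livers. Atp5g2 had 157, 154 and 169 FPKM in extract livers, against 189.9, 156 and 152 FPKM in water livers, and the groups overlapped for both. Atp5b had 754, 754 and 758 FPKM in extract livers, against 819, 844 and 789 FPKM in water livers. Its means were 755 ± 2.21 FPKM in extract and 817 ± 27.4 FPKM in water livers (SD, n = 3 each), or -0.11 on the log2 scale (SE 0.12, limma adjusted p = 0.841). The alpha subunit Atp5a1, its partner in the catalytic ring, had 384, 384 and 377 FPKM in extract livers, against 335, 437 and 407 FPKM in water livers. Here water 1 was the lowest library and the extract libraries lay between it and the other 2. Atp5o, a stalk subunit, had 226, 214 and 211 FPKM in extract livers, against 291, 206 and 211 FPKM in water livers. The small membrane subunits Atp5mpl and Atp5j2 had 121 to 137 and 232 to 267 FPKM in extract livers, against 129.9 to 205 and 243 to 382 FPKM in water livers, with the top value of both in water 1.

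The 10 rows that are not subunits were mixed in sign: 6 were below 0 (42.4% of all tested genes were) and 4 above, with a median log2 fold change of -0.02. Without water 1, 3 were below 0 and 7 above, with a median of 0.10. With all libraries 0 passed limma at an adjusted or unadjusted p of 0.05, against 0.0486% and 10.3% of all tested genes. Ndufaf3, which acts early in complex I assembly, had 5.02, 5.37 and 4.86 FPKM in extract livers, against 4.65, 4.13 and 4.30 FPKM in water livers, all extract libraries above all water libraries (log2 fold change 0.18, limma adjusted p = 0.617). Ndufaf7, a methyltransferase needed for complex I assembly, had 5.65, 5.10 and 5.60 FPKM in extract livers, against 5.86, 6.15 and 6.97 FPKM in water livers, all extract libraries below (log2 fold change -0.18, limma adjusted p = 0.642). Ndufaf6 had 8.81, 9.12 and 9.15 FPKM in extract livers, against 12.4, 12.7 and 8.78 FPKM in water livers, with overlap.

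Other genes of the pathway were read from 6 lists, and 0 of their members passed limma over all genes. Of all tested genes, 3.82% were lower and 6.50% higher in extract at limma's unadjusted p below 0.05, and 42.4% had a log2 fold change below 0. Among 47 tested assembly factors of the 5 complexes, the 8 Ndufaf genes included, 0 were higher and 1 lower at limma's unadjusted p below 0.05, with 23 below 0 and a median log2 fold change of 0.01 (0.04 without water 1). That gene was Coa6, a copper-related factor of complex IV, at 20.3 ± 2.30 FPKM in extract and 26.9 ± 3.01 FPKM in water livers (SD, n = 3 each). Cox18, which inserts a complex IV subunit into the membrane, had 9.38 ± 1.01 FPKM in extract and 7.56 ± 0.80 FPKM in water livers (limma adjusted p = 0.509). The listed subunits outside the spelling rule that matched a row were Cyc1, the cytochrome c1 of complex III, and Usmg5, a small ATP synthase subunit. Cyc1 had 173 ± 6.82 FPKM in extract and 184 ± 11.4 FPKM in water livers, and Usmg5 had 243 ± 34.3 and 284 ± 70.9 FPKM. Among 17 genes of electron carriers and ubiquinone synthesis, 0 passed at limma's unadjusted p below 0.05 in either direction, with 9 below 0 and a median of -0.01 (0.02 without water 1). Pdss1 and Pdss2, which make the ubiquinone side chain, had 1.41 ± 0.02 and 4.32 ± 0.322 FPKM in extract livers, against 1.07 ± 0.218 and 3.58 ± 0.085 FPKM in water livers, with no overlap for either.

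Of 15 regulators of mitochondrial gene expression, 2 were lower and 0 higher at limma's unadjusted p below 0.05, against 3.82% and 6.50% of all tested genes. 10 were below 0, against 42.4%, and the median log2 fold change was -0.06, or -0.12 without water 1. Tfb2m, the mitochondrial transcription initiation factor, had 15.5, 15.3 and 15.1 FPKM in extract livers, against 20.1, 19.6 and 22.6 FPKM in water livers. All extract libraries lay below all water libraries, and the log2 fold change was -0.41 (SE 0.11, limma adjusted p = 0.234), or -0.43 without water 1. Twnk, the mitochondrial DNA helicase, had 7.75 ± 0.865 FPKM in extract and 10.2 ± 1.51 FPKM in water livers (SD, n = 3 each; limma adjusted p = 0.452). Of 17 citrate cycle and pyruvate dehydrogenase genes, 2 were lower and 0 higher at limma's unadjusted p below 0.05, against 3.82% and 6.50% of all tested genes. 14 were below 0, against 42.4%, with a median of -0.11, or -0.13 without water 1. Idh2, the NADP-dependent isocitrate dehydrogenase, had 63.9, 63.1 and 83.9 FPKM in extract livers, against 100.4, 91.2 and 92.3 FPKM in water livers (log2 fold change -0.43, limma adjusted p = 0.337). Fh1, fumarase, had 84.7, 103 and 71.3 FPKM in extract livers, against 106, 115 and 111 FPKM in water livers (log2 fold change -0.37, limma adjusted p = 0.463). The groups did not overlap for either. Of 19 import, carrier and mass genes 0 passed at limma's unadjusted p below 0.05, against 10.3% of all tested genes, with 12 below 0 and a median of -0.08, or -0.05 without water 1. In that list the prohibitin Phb2 had 146 ± 10.1 FPKM in extract and 178 ± 16.8 FPKM in water livers, and the channel Vdac3 had 52.1 ± 3.80 and 44.5 ± 6.59 FPKM (SD, n = 3 each).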

How the data were processed

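6 libraries of mouse liver RNA, selected with oligo(dT) beads, were sequenced. The submitters' processing notes name RSEM 1.2.12, HISAT2 2.0.4, Bowtie2 2.2.5 and the build GRCm38 without saying what each was used for. The headers of the deposited table give no unit. Its numbers were read as FPKM computed by the authors. Weighted by transcript length they came to 108.2% to 109.2% of the total that defines FPKM, and the unweighted sums differed between libraries, which those of TPM would not. FPKM divides by length and library size, and a difference between libraries that runs with transcript length stays in the values. Of 22899 rows, 5161 were blank and 17738 had values. 21633 gene IDs matched RefSeq (GRCm38.p6), the source of coordinates and promoter windows. Transcript length was that of the longest GENCODE M21 transcript with a RefSeq match.

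Genes that reached 1 FPKM in 3 or more libraries entered limma 3.58.1 (R 4.3.3) on log2(FPKM + 1), with a trended prior variance and Benjamini-Hochberg adjustment over 10282 genes. Fold changes are extract over water on that scale, which understates those of low genes. The fit was tested on simulated data. The members and gene lists were chosen with earlier results of these data known. Genes named were the 3 of smallest p in each complex and among the non-subunits, a fixed set of core subunits and isoforms, and the 2 of smallest p in each pathway list; all others, such as Ndufc2, Atp5e, Ndufb4c and those at the ends of a range, were chosen after their values were seen. Alternatives covered pseudocounts, filters, scaling, variance options, library weights, a replicate block, each library left out and, added after seeing the data, removal of a lowess trend (span 0.3) with length. The values of 1 named gene are not reported here. Group mean columns were not used, and methods that need counts were not run.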

Additional observations from a re-analysis of the deposited data

How the results depend on the processing

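No call among the 95 rows was made under any of the 19 alternatives except library weights, where 1 row, Cox7a1, passed (limma adjusted p = 0.0354). Over all genes limma called 5 with all libraries, 2 higher and 3 lower in extract (1 and 1 after quantile normalization, 1 and 3 with values rescaled to a common sum or by their upper quartile). The number was 2 with a pseudocount of 0.1 or 0.01 or after quantile normalization, 0 with no filter on low genes or after median centring, 3 with the length trend removed and 133 with library weights (5 at a mean of at least 5 FPKM); leaving out 1 library gave 0 to 49. At limma's unadjusted p below 0.05, 2 subunits were lower with all libraries. The count was 0 where a mean of 5 FPKM was required and 5 after rescaling to a common sum. It was 1 with library weights and 9 with the length trend removed. Leaving out 1 library gave 1 to 7, the highest without water 3. Over all genes, 1061 of 10282 were at that threshold in either direction with all libraries. They numbered 920 after rescaling to a common sum, 1926 with library weights and 991 without water 3. Where a mean of 5 FPKM was required they were 690 of 6233, and with the length trend removed 1216 of 10153. Leaving out 1 library gave medians of -0.24 to -0.03 over all subunits, -0.24 to 0.00 in complex I, -0.11 to -0.04 in II, -0.28 to -0.06 in III, -0.29 to -0.06 in IV and -0.23 to -0.03 in V, each nearest to 0 without water 1 except in complex II. With library weights the complex II median was -0.13, against -0.06, while the median over all subunits was -0.05, against -0.17, and those of complexes I, III, IV and V were -0.03, -0.08, -0.09 and -0.04; 70.5% of subunits were then below 0, against 98.7%. Signs turned for 7 named genes near 0. Ndufs1 was -0.018 after median centring, -0.002 after upper-quartile scaling, -0.010 after rescaling to a common sum, -0.032 with library weights and -0.004 with the length trend removed, against 0.025. Atp5a1 was 0.038 after quantile normalization, and with library weights Atp5g2 was 0.006, Atp5o 0.037 and Cox5a 0.003. Leaving out 1 library gave -0.143 to 0.046 for Atp5a1, -0.104 to 0.053 for Atp5g2, -0.188 to 0.059 for Atp5o, -0.162 to 0.021 for Cox5a, -0.093 to 0.104 for Ndufs1, -0.219 to 0.049 for Sdha and -0.076 to 0.000 for Sdhc. The cause of these shifts was not tested.

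The labels number the libraries of both groups alike without stating a pairing. Deviations of same-numbered libraries from their group means correlated at -0.02, -0.18 and 0.12 for numbers 1, 2 and 3, so the numbers were not taken to pair them. With the replicate block 0 of all genes had a limma adjusted p below 0.05, 922 had an unadjusted one, and 0 of the 95 rows passed; extract 3 and water 3 correlated best with each other, and the other libraries did not correlate best with their own number. Read totals are unknown, so the error of low members such as Cox7a1 cannot be given.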

Other observations

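Atpif1, which encodes an inhibitor of the ATP synthase and is not matched by the symbol rule, was read after its values were seen. It had 11.7, 10.5 and 8.79 FPKM in extract livers, against 17.4, 14.5 and 14.8 FPKM in water livers, with no overlap. Its log2 fold change was -0.55 with a standard error of 0.14, and it did not pass over all genes (limma adjusted p = 0.219). Against water 2 and 3 alone, the 640 tested genes under 1000 nucleotides had a median log2 difference of 0.13 in the extract livers, while the 49 subunits of that length had 0.00.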
